A study of Rattus norvegicus with 11 samples.

Results

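The translation initiation and elongation factors were taken as every probe set whose single platform gene symbol begins with Eif or Eef, with Eif4ebp1 left out. That rule found 65 probe sets for 55 genes among the 15923 probe sets of the array, and 60 of them, for 53 genes, passed the filter on low signal and were tested. A probe set is a group of short probes on an Affymetrix array that together give 1 signal. The samples were total RNA from rat hippocampus: 6 came from animals fed the control diet and 5 from animals fed the ketogenic diet, which is credited in the labels with preventing epileptic seizures. Strain, age, sex, the length of feeding and any seizure model were not given in the labels, and they do not state whether the samples are from different animals; the p-values therefore reflect only the spread among the samples, part of which may be technical. A ketogenic diet is rich in fat and very poor in carbohydrate, and the liver makes ketone bodies from the fat.

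Translation begins when the small ribosomal subunit, carrying the initiator tRNA on eIF2 and scaffolded by eIF3, is brought to the capped 5′ end of an mRNA by the eIF4 factors and scans to a start codon. The large subunit then joins, and the elongation factors eEF1A and eEF2 deliver each tRNA and move the ribosome along. Phosphorylation of eIF2 by stress kinases, and control of eIF4E and eEF2 by nutrient signals, set how much protein a cell makes. In hippocampal neurons these control points are known for their part in long-lasting synaptic change.

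Of the 60 tested factor probe sets, 8 rose and 3 fell on the ketogenic diet at an adjusted p under 0.05 (limma, Benjamini-Hochberg over the 11899 that were tested), which is 18.3%. The background was near that share: 16.5% of all tested probe sets passed, with 8.62% higher and 7.87% lower. Counted by gene, with the probe set of highest mean signal standing for each, 7 of 53 rose and 2 fell (17.0%, against 16.9% of 8397 genes). Of the 2 that fell, Eif4g2 did not pass on the mean of its probe sets (-0.05, adjusted p = 0.626, limma). The 8 that rose were the eIF3 subunits Eif3a, Eif3f, Eif3h, Eif3i and Eif3k, together with Eif2b3, Eif2ak4 and 1 of 2 probe sets of Eef1a1. The 3 that fell were Eif6 and 1 of 2 probe sets each of Eif4e and Eif4g2. The median log2 fold change (ketogenic minus control) was 0.05 over the factor probe sets, 37 of them above 0, and -0.00 over all tested probe sets. In 5 of the 60 (8.33%) the signals of the diets did not overlap, against 6.99% of all tested probe sets.

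**Figure D1:**
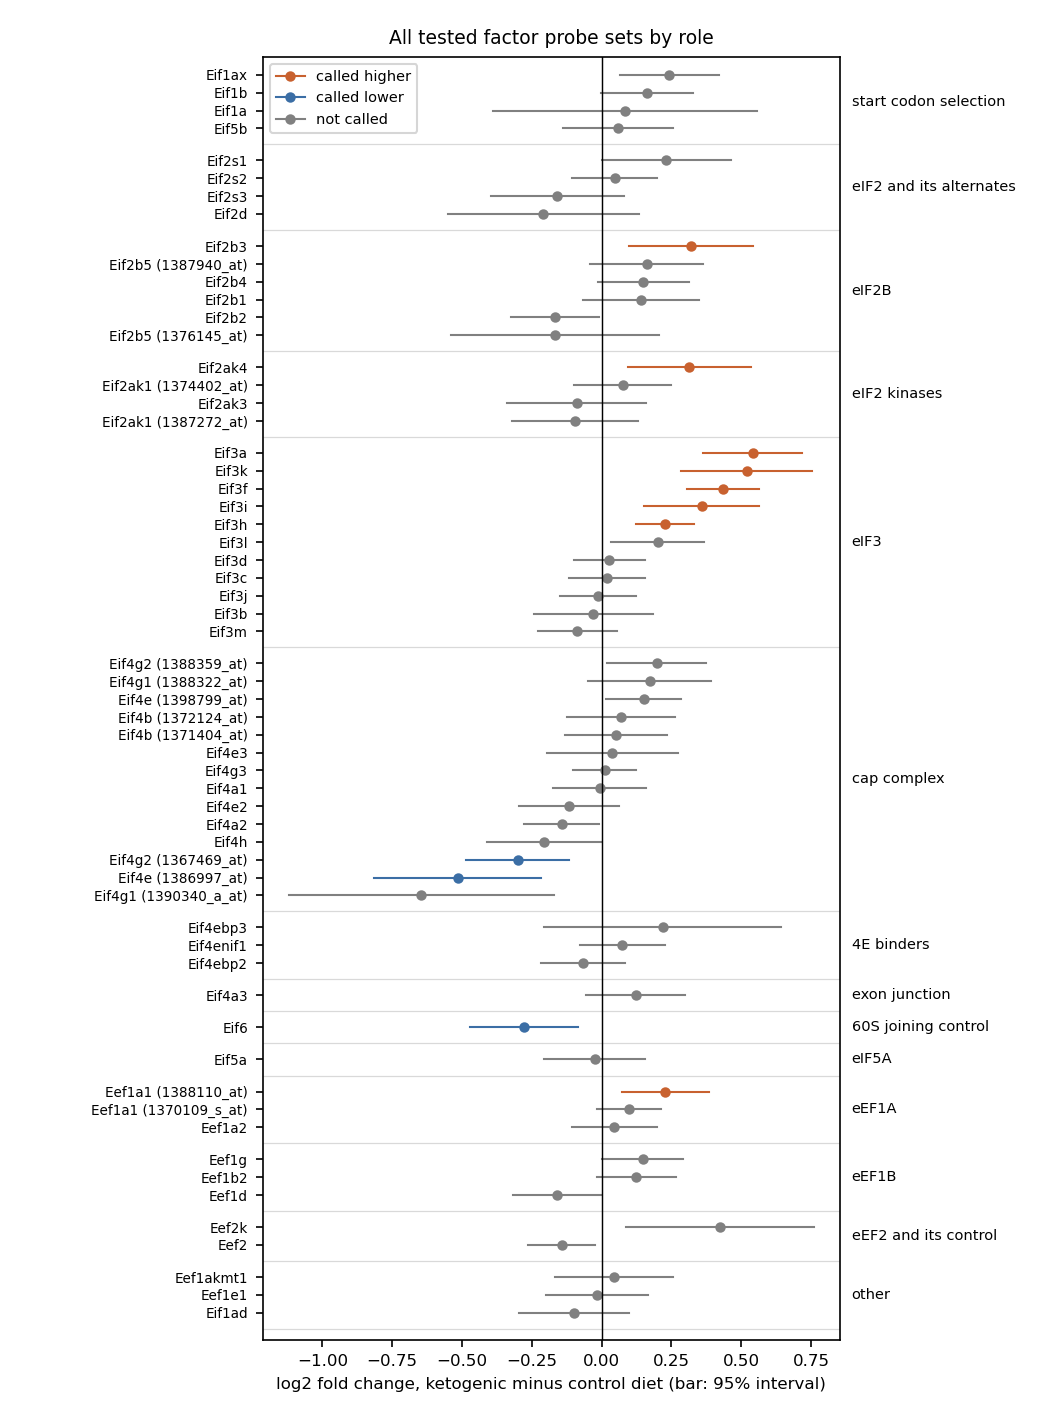
Log2 fold change, ketogenic minus control diet, of the 60 tested factor probe sets, arranged by role, with 95% intervals. Red points passed upwards, blue points passed downwards and grey points did not pass the adjusted threshold, also where their own interval leaves out 0; the red points lie mostly within eIF3.

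Several array properties moved with diet. The 3′ to 5′ probe ratio of Gapdh, a sign of RNA integrity, was higher on the ketogenic arrays by 0.20 on the log2 scale (2-sided exact permutation test, p = 0.00649, adjusted over 5 measures 0.00812), and that of actin by 0.19 (p = 0.00216, the smallest that 6 against 5 samples allow, adjusted 0.00541). By the same exact test the deposited median signal differed by -0.14 (p = 0.00216, adjusted 0.00541), the signal of the 18 hybridisation spike-in probe sets by 0.30 (p = 0.00649, adjusted 0.00812) and that of all 45 spike-in probe sets by -0.14 (p = 0.219, adjusted 0.219). The 18 are among the 45. Their mean log2 level was 8.33 on control and 8.63 on ketogenic arrays, against 4.83 and 4.69 for all 45. The spike-in probe sets outside the 18 were thus far dimmer on average, and lower on the ketogenic arrays. Ketogenic replicate 3 correlated better with the control arrays (mean r = 0.961) than with the other ketogenic arrays (0.952), and its title ends differently from the others. Without that array 11 factor probe sets rose and 5 fell (26.7%), and 26.6% of all tested probe sets passed. Red blood cell markers were lower, 4 of 5 measured genes falling and 1 rising, with a mean log2 signal of 7.39 to 7.76 on control and 6.20 to 6.67 on ketogenic arrays. Choroid plexus markers ranged from 6.71 to 7.39 on control and from 6.33 to 6.68 on ketogenic arrays, and 3 of 7 fell. Astrocyte and microglial markers fell in 2 genes each of 7 and 6 measured, and 1 gene each of the oligodendrocyte (of 6), endothelial (of 5) and meningeal (of 8) lists fell. Of all 8397 tested genes 16.9% passed in either direction, 743 rising and 675 falling, and no marker list was tested as a set. None of the 8 neuronal markers passed in either direction, and 2 of 7 hippocampal neuron markers rose. The part of these differences in the results was not tested beyond the covariate fits below, and in bulk tissue fewer cells of a type and less RNA per cell cannot be told apart. No scan or preparation batch is named in the labels, and a batch that followed diet cannot be told apart from it.

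Promoter sequences are shown for 4 eIF3 subunits because the subunits that rose and the subunits that did not share the same motifs. RefSeq promoter windows of rat build GRCr8, 250 bases before to 50 bases after each annotated start, were matched for 51 of the 55 genes (54 windows), and the stretches below are the 100 bases before the start, 5′ to 3′ on the gene's strand. Capitals mark CCGGAAG on either strand, the core bound by ETS-family transcription factors, or CACGTG, an E-box of the kind bound by MYC. Eif3i lies at chr5:147226911-147227010 (minus strand), Eif3k at chr1:93397488-93397587 (minus), Eif3f at chr1:172368962-172369061 (plus) and Eif3m at chr3:111897194-111897293 (minus).
Eif3i: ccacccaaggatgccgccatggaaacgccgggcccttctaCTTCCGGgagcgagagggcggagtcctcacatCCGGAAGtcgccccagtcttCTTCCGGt
Eif3k: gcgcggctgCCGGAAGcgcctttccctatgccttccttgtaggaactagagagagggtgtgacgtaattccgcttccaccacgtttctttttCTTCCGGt
Eif3f: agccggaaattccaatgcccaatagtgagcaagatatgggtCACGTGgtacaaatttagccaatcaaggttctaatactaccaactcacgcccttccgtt
Eif3m: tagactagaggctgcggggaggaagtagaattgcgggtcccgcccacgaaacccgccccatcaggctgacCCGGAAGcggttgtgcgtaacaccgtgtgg
Eif3i holds 3 matches to CCGGAAG in this stretch. CCGGAAG occurred in 19 of the 54 factor windows (35.2%) and in 8.75% of 33469 windows of the same length. CACGTG occurred in 11 of 54 (20.4%) against 6.42%. A pyrimidine tract, here a C followed by at least 6 pyrimidines that begins within 15 bases of the annotated start, occurred in 13 of 54 (24.1%) against 15.99%. Such tracts at the 5′ end mark the TOP mRNAs, whose translation follows mTOR activity, and Eef1a1 is a classic member. Among the 10 eIF3 windows, CCGGAAG was found for Eif3d, Eif3i, Eif3k and Eif3m, CACGTG for Eif3a, Eif3b and Eif3f, and the tract for Eif3d, Eif3f, Eif3i, Eif3k and Eif3m. The tract read CCTCTCTCTTTCTC in Eif3f, beginning 4 bases past the annotated start base, and CCTCTCTCCTC in Eif3i, beginning 13 bases past it. In Eif3m it read CTCCTTTTCC, beginning 5 bases past the annotated start base. In Eif3k it read CTTTTTCTTCC but began at -14, so it lay wholly before the annotated start, as did the 7-base tract of Eif3d, which began at -13. None of these eIF3 tracts therefore began at the first base of the annotated mRNA, and those of Eif3k and Eif3d lay outside it. Each motif was thus present both in subunits that rose and in subunits that did not pass. No window was matched for Eif3h, which also rose, and the CACGTG of Eif3a began 30 bases past the annotated start base.

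eIF3 is the largest initiation factor, a complex of many subunits that binds the small ribosomal subunit and links it to eIF4G and the mRNA. Of the 11 eIF3 probe sets, each for a different subunit, 5 rose and none fell (45.5%, where 8.62% of all tested probe sets rose), and the median log2 fold change was 0.20. Outside eIF3, 3 of 49 factor probe sets rose and 3 fell (12.2%). The share within eIF3 was not tested as a set.

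Eif3a encodes the scaffold subunit on which much of the complex is built. Its log2 signal was 7.59, 7.69 and 7.75 (lowest, median and highest) on the 6 control arrays, and 8.30, 8.34, 7.93, 8.40 and 8.17 on ketogenic arrays 1 to 5. The lowest ketogenic array, replicate 3, was above every control array. The difference was 0.54 (SE 0.08, adjusted p = 0.00239), a 1.45-fold rise.

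Eif3f, an MPN-domain subunit, gave 8.56, 8.73 and 8.81 on control arrays and 9.15, 9.13, 9.20, 9.10 and 9.07 on ketogenic arrays. The ketogenic signals lay within a narrow band and did not overlap the control signals. The difference was 0.43 (SE 0.06, adjusted p = 0.0018), a 1.35-fold rise.

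The partner MPN-domain subunit, Eif3h, had control signals of 9.15, 9.20 and 9.25 and ketogenic signals of 9.47, 9.49, 9.39, 9.44 and 9.36. Both diets were tightly grouped, again without overlap. The change was smaller, at 0.23 (SE 0.05, adjusted p = 0.00948).

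For Eif3k, a small peripheral subunit, control arrays read 7.14, 7.32 and 7.55, and ketogenic arrays read 7.90, 8.19, 7.54, 7.81 and 7.74. Here replicate 3 fell just inside the control range, and the other 4 ketogenic arrays were above it. The rise was 0.52 (SE 0.11, adjusted p = 0.0093).

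For Eif3i, a WD-repeat subunit, control arrays read 7.54, 7.66 and 7.88, and ketogenic arrays read 8.13, 8.33, 7.82, 8.05 and 7.91. Replicate 3 again lay inside the control range. The rise was 0.36 (SE 0.10, adjusted p = 0.0244). It passed in 6 of 11 fits without 1 array, and the rise stayed between 0.29 and 0.41 over all 11. The adjusted p was 0.0518 without control 2 and 0.0515 without control 3. It was 0.0549 without ketogenic 1, 0.0654 without ketogenic 2 and 0.0578 without ketogenic 4. Fewer of all tested probe sets passed in each of those fits too. Eif3a, Eif3f, Eif3h and Eif3k passed in all 11 fits that left out 1 array.

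The other 6 measured subunits did not pass, and Eif3e and Eif3g had no probe set under the rule. Eif3l, which pairs with Eif3k in the complex, came nearest, at 0.20 (adjusted p = 0.0876). Eif3d, a subunit that can bind the mRNA cap itself, was at 0.03, and the core subunits Eif3c and Eif3b were at 0.02 and -0.03. Eif3j, a loosely attached subunit, was at -0.01 and Eif3m at -0.09, with adjusted p from 0.384 to 0.904 over these 5. The 95% interval of the Eif3c difference ran from -0.12 to 0.16, so a rise as large as that of Eif3a lay outside it.

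**Figure D2:**
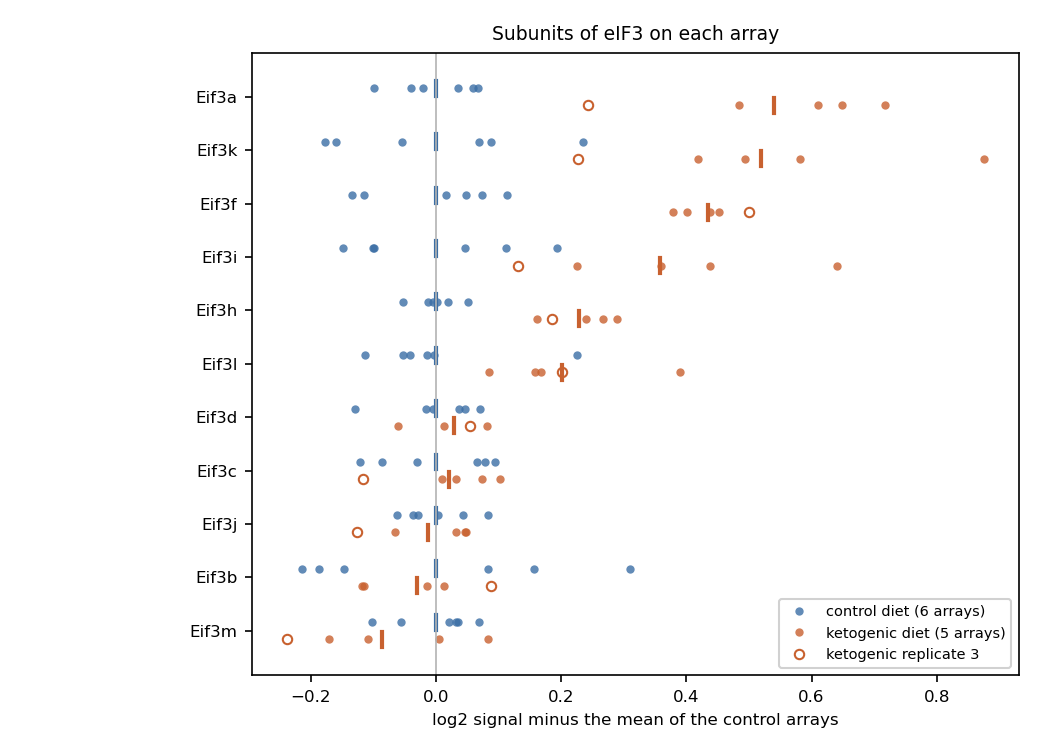
Log2 signal of the 11 measured eIF3 subunits on each array, minus the mean of the 6 control arrays. Vertical ticks are diet means and open circles mark ketogenic replicate 3. In Eif3a, Eif3f and Eif3h all 5 ketogenic arrays lie to the right of all control arrays, while the diets intermingle from Eif3d to Eif3m.

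eIF2 carries the initiator tRNA, eIF2B recharges it with GTP, and the eIF2 kinases shut this cycle down under stress. None of the 4 probe sets of eIF2 and its alternates passed, 1 of 6 of eIF2B rose and 1 of 4 of the kinases rose. Over all tested probe sets 8.62% rose and 7.87% fell, and no role was tested as a set. Eif2ak4 encodes GCN2, the kinase that senses uncharged tRNA. Its control signals were 5.73, 5.86 and 5.96 and its ketogenic signals 6.16, 6.06, 6.05, 6.25 and 6.29. Every ketogenic array was above every control array in this dim probe set. The difference was 0.31 (SE 0.10, adjusted p = 0.0492). That call was lost in 10 of 11 fits without 1 array, with adjusted p up to 0.118, and stayed only without ketogenic replicate 3; on the signals as deposited, without quantile normalisation, the difference was 0.13 (adjusted p = 0.399).

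Eif2b3, the gamma subunit of eIF2B, had control signals of 6.69, 6.80 and 7.22 and ketogenic signals of 7.29, 7.26, 7.02, 7.21 and 7.22. Only the first 2 ketogenic arrays exceeded all controls, the highest of which stood apart from the control median. The rise was 0.32 (SE 0.10, adjusted p = 0.0496), and it passed in 3 of 11 fits without 1 array, those without control 1, control 6 or ketogenic 3, with adjusted p up to 0.108 in the others. The other eIF2B subunits ranged from -0.17 to 0.16.

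Among the brightest probe sets of these roles, Eif2s2 (the beta subunit of eIF2) read 8.18, 8.37 and 8.50 on control arrays and 8.48, 8.32, 8.32, 8.45 and 8.42 on ketogenic arrays. Eif2b2, the beta subunit of eIF2B, read 7.57, 7.70 and 7.72 against 7.37, 7.47, 7.59, 7.46 and 7.70. Diets overlapped in both, with differences of 0.05 (adjusted p = 0.683) and -0.17 (adjusted p = 0.132). Eif2ak1, the haem-regulated kinase, read 7.75, 8.04 and 8.46 against 7.83, 7.98, 8.17, 8.02 and 7.88 on its brighter probe set, a difference of -0.09 (adjusted p = 0.558). Eif2s1, the alpha subunit on which the kinases act, was at 0.23 (adjusted p = 0.149). Eif2ak2, the kinase that responds to double-stranded RNA, was under the signal filter and untested.

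Start codon selection is governed by eIF1, eIF1A and eIF5, with eIF5B guiding the large subunit. All 4 measured probe sets of this role were above 0, and none passed. Eif1ax came nearest at 0.24 (adjusted p = 0.0583). The brightest, Eif1b, gave 8.06, 8.22 and 8.31 on control arrays and 8.15, 8.54, 8.30, 8.36 and 8.49 on ketogenic arrays, overlapping, with a difference of 0.16 (adjusted p = 0.158).

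The cap complex holds eIF4E, which binds the cap, the scaffold eIF4G, the helicase eIF4A and its helpers eIF4B and eIF4H. Of its 14 probe sets 2 fell and none rose, with a median log2 fold change of 0.00, where 7.87% of all tested probe sets fell and 8.62% rose. Eif4e on probe set 1386997_at read 6.46, 6.72 and 6.75 on control arrays and 5.95, 5.74, 6.68, 6.23 and 6.24 on ketogenic arrays. Ketogenic replicate 3 lay with the controls, and the other 4 were below all of them. The fall was -0.52 (SE 0.14, adjusted p = 0.0256), with an adjusted p of 0.0606 without ketogenic 1, 0.0646 without ketogenic 2 and 0.0535 without ketogenic 4. The brighter Eif4e probe set, 1398799_at, went the other way at 0.15 (adjusted p = 0.113).

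Eif4g2, also called DAP5, is a relative of eIF4G that lacks the eIF4E-binding site. Probe set 1367469_at read 9.80, 9.88 and 9.91 on control arrays and 9.67, 9.16, 9.76, 9.56 and 9.70 on ketogenic arrays. All ketogenic arrays were below all control arrays, and replicate 2 was far below the others. The difference was -0.30 (SE 0.09, adjusted p = 0.0314), moving to -0.20 without ketogenic 2, where it still passed. The adjusted p was 0.0606 without control 2, 0.0505 without control 3, 0.054 without control 4, 0.0593 without control 5 and 0.0725 without ketogenic 4. On the deposited scale the difference was -0.18 (adjusted p = 0.109). The gene's dimmer probe set, 1388359_at, was at 0.20 (adjusted p = 0.114).

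Eif4g1, the main eIF4G scaffold, had the widest gap between probe sets, at 0.17 (adjusted p = 0.259) on 1388322_at and -0.65 (adjusted p = 0.0603) on 1390340_a_at, and neither passed. Of the 7 genes with 2 tested probe sets, 2 (Eef1a1 and Eif4b) had the same sign on both and 5 had opposite signs. Direction for Eif4e, Eif4g1, Eif4g2, Eif2ak1 and Eif2b5 is therefore uncertain at the level of the gene. Probe sets of a gene can read different transcript ends, and the positions of these probes were not used here.

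**Figure D3:**
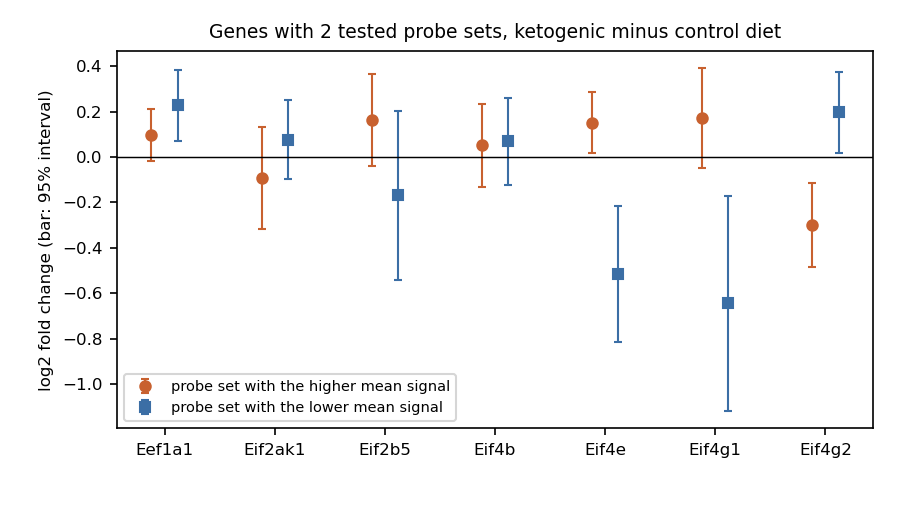
Log2 fold change with 95% interval for the 7 genes with 2 tested probe sets; circles are the probe set with the higher mean signal, squares the one with the lower. Eif4e, Eif4g1 and Eif4g2 show estimates on opposite sides of 0.

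The brightest cap-complex probe set, for the brain-enriched helicase Eif4a2, read 11.00, 11.10 and 11.16 against 10.85, 10.74, 11.15, 11.03 and 11.01, a difference of -0.14 (adjusted p = 0.129). Without ketogenic replicate 3 it passed, at -0.19 (adjusted p = 0.0269). Its relative Eif4a3, a core of the exon junction complex rather than an initiation factor, read 8.34, 8.49 and 8.54 against 8.74, 8.54, 8.28, 8.61 and 8.75. Replicate 3 alone was below all controls there. The difference was 0.12 (adjusted p = 0.319), and 0.20 without that array (adjusted p = 0.0412). Among the factor probe sets for proteins that bind eIF4E, none of 3 passed. Eif4ebp2, the main repressor of eIF4E in brain, read 7.82, 7.95 and 8.14 against 7.94, 7.94, 7.96, 7.83 and 7.79, a difference of -0.07 (adjusted p = 0.536). Eif4ebp1, which the rule left out, is counted among the cap-complex regulators below. It was lower at -0.43 (adjusted p = 0.0285, limma).

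Eif6 keeps the large subunit from joining too early and acts in its assembly. Control arrays read 8.56, 8.75 and 8.88, and ketogenic arrays 8.66, 8.32, 8.74, 8.33 and 8.35. Ketogenic arrays 2, 4 and 5 were below all controls, and arrays 1 and 3 were within their range. The fall was -0.28 (SE 0.09, adjusted p = 0.0482). It passed in 3 of 11 fits without 1 array, those without control 1, ketogenic 1 or ketogenic 3, with adjusted p up to 0.128 in the others, and was -0.23 (adjusted p = 0.069) on the deposited scale.

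**Figure D4:**
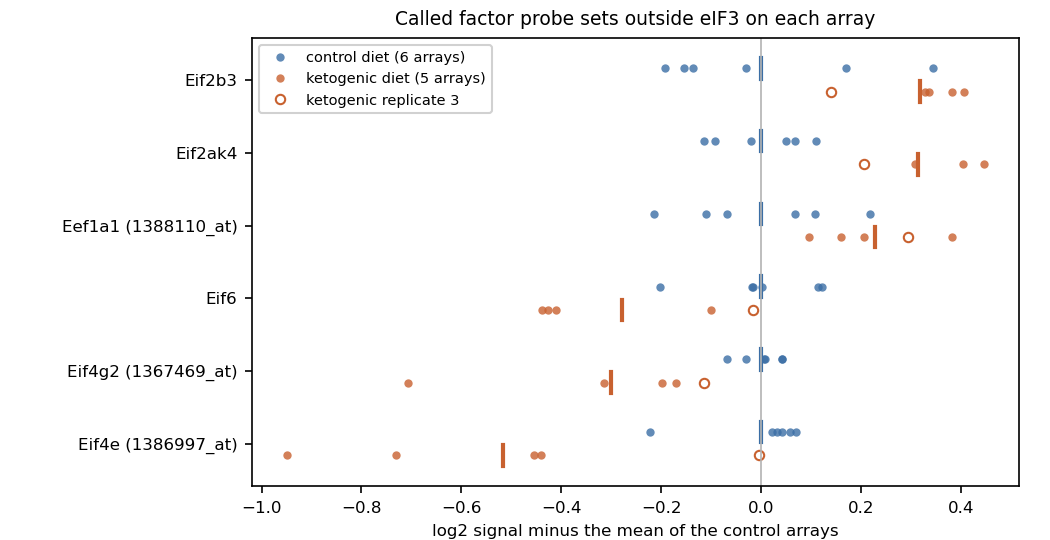
Log2 signal on each array, minus the control mean, of the 6 factor probe sets outside eIF3 that passed; vertical ticks are diet means. Open circles mark ketogenic replicate 3, which lies beside the control arrays in Eif6 and Eif4e; Eif2ak4 and Eif4g2 show no overlap.

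Of the 10 tested probe sets with Eef symbols 1 rose and none fell, near the 8.62% and 7.87% of all tested probe sets. They include the kinase Eef2k, the scaffold protein Eef1e1 and the methyltransferase Eef1akmt1, which are not themselves elongation factors. The log2 fold changes of the 10 ran from -0.16 for Eef1d to 0.42 for Eef2k. eEF1A, which brings charged tRNA to the ribosome, is among the most abundant proteins of the cell. Eef1a1 on probe set 1388110_at read 10.83, 11.04 and 11.26 on control arrays and 11.25, 11.43, 11.34, 11.20 and 11.14 on ketogenic arrays. The diets overlapped, and the rise was 0.23 (SE 0.07, adjusted p = 0.047). That call stood in 2 of 11 fits without 1 array, those without control 6 or ketogenic 5, with adjusted p up to 0.124 in the others. The second Eef1a1 probe set, 1370109_s_at, read 10.94, 11.15 and 11.25 against 11.29, 11.15, 11.23, 11.29 and 11.13, a difference of 0.10 (adjusted p = 0.221). It passed at 0.24 on the deposited scale (adjusted p = 0.00947). Eef1a1 has many near-identical copies in the genome, so its signals may be shared. Eef1a2, the form of mature neurons and muscle, was at 0.04 (adjusted p = 0.694).

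The eEF1B subunits recharge eEF1A. Eef1g read 9.35, 9.52 and 9.55 on control arrays and 9.82, 9.68, 9.57, 9.45 and 9.59 on ketogenic arrays. Only ketogenic array 4 fell within the control range. The difference was 0.15 (adjusted p = 0.147), and 0.28 (adjusted p = 0.016) on the deposited scale.

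eEF2 moves the ribosome by 1 codon, and its kinase, Eef2k, stops it when calcium or energy stress calls. Eef2 read 9.70, 9.83 and 9.97 on control arrays and 9.63, 9.65, 9.75, 9.63 and 9.73 on ketogenic arrays, a difference of -0.14 (adjusted p = 0.0898). The 1 tested Eef2k probe set was at 0.42 (adjusted p = 0.079), and the other 3 were under the signal filter. Eif5a, which helps the ribosome through difficult peptide bonds, read 8.86, 9.19 and 9.38 against 9.05, 9.0, 9.27, 9.10 and 9.22, a difference of -0.02 (adjusted p = 0.865). Eef1e1, a scaffold protein of the tRNA synthetase complex, read 7.72, 7.92 and 7.98 against 8.02, 8.04, 7.60, 7.84 and 7.86, a difference of -0.02 (adjusted p = 0.901). The remaining untested members were Eef1akmt4, a methyltransferase, and Eif2ak2.

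Adding the Gapdh and actin 3′ to 5′ ratios as covariates left no factor probe set past the threshold and 6 of 11899 overall. At an unadjusted p under 0.05 that limma fit held 4 of 60 factor probe sets and 6.45% of all. Eif3f was at 0.40 (SE 0.12, adjusted p = 0.596), its error larger than the 0.06 without covariates, and Eif3a was at 0.38 (SE 0.16, adjusted p = 0.72). Eif3k went to 0.18 and Eif3i to -0.02, the latter with its sign turned, as did Eif2b3 at -0.10 and the Eif4e probe set at 0.07. The ratios differed between the diets, so these fits separate ratio and diet only in part. With the level of all 45 spike-in probe sets as covariate, 4 factor probe sets rose and none fell, which is 6.67% against 6.45% of all tested probe sets (402 higher and 365 lower). Most of those 45 lie outside the 18 hybridisation ones and were dim on average, so that covariate is in large part a level of dim probe sets. At the same unadjusted level 16 of 60 factor probe sets and 26.4% of all passed in that fit, so both counts were near the background. The 4 that rose were all among the 11 measured eIF3 subunits. With the hybridisation spike-ins as covariate 4 factor probe sets rose, 3 of them eIF3 subunits, and 2 fell (10%, against 11.4% of all).

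**Figure D5:**
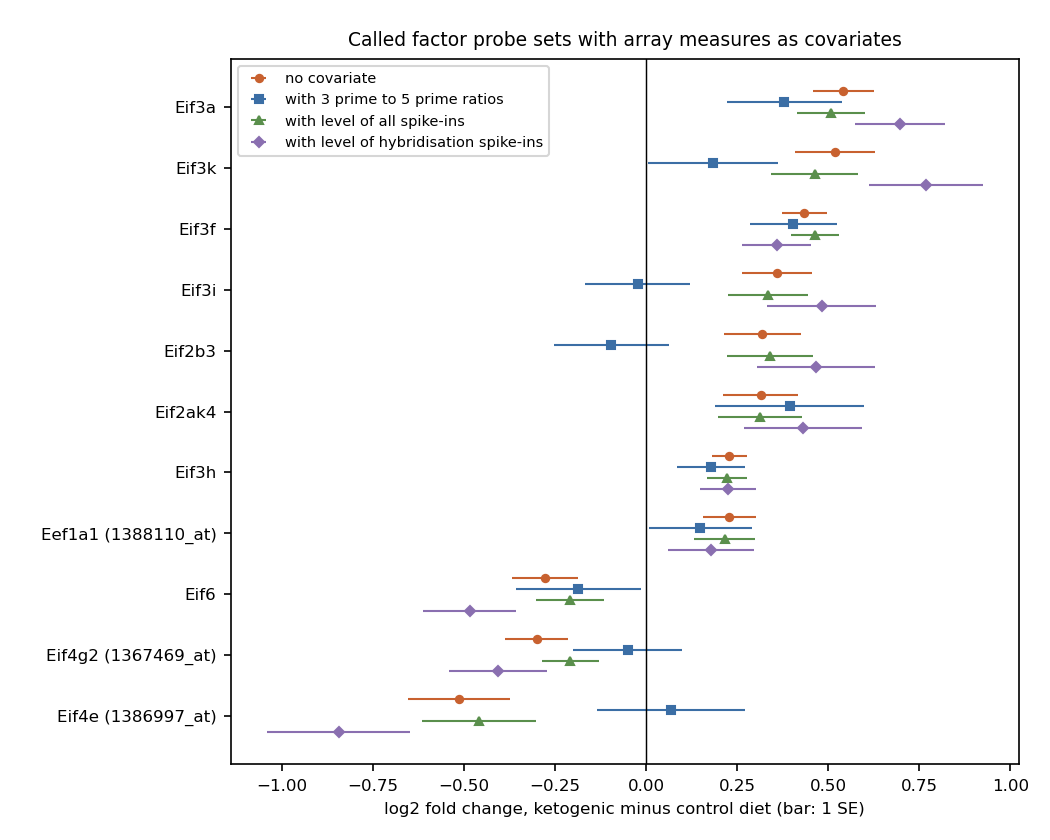
Log2 fold change with 1 SE of the 11 factor probe sets that passed, fitted with no covariate, with the 3′ to 5′ ratios, with the level of all spike-ins, or with that of the hybridisation spike-ins. With the ratios Eif3a and Eif3f stay above 0.35, while Eif3i, Eif2b3 and Eif4e cross 0.

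The choice of scaling bore on the split of calls. On the deposited signals 12 factor probe sets rose and 2 fell (23.3%), while 1076 rose and 1736 fell over all probe sets (23.6%). After centring on the 75th percentile 13 factor probe sets rose and 2 fell (25%), while 1347 rose and 1379 fell over all (22.9%). eIF3 had 5 rises on the deposited signals and 6 after centring, with no fall in either.

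Companion lists of genes that act around these factors gave calls in both directions, against a background of 16.9% of genes. Among 20 measured regulators of the cap complex 4 rose and 4 fell. Pdcd4, which blocks eIF4A, rose by 0.68 (adjusted p = 0.00272), Akt1, a growth-signal kinase, by 0.30 (adjusted p = 0.00732), and Rps6kb1, which encodes S6 kinase, fell by 0.38 (adjusted p = 0.0242). Of 17 genes of the integrated stress response 4 rose and 2 fell. Cebpb, a transcription factor of that response, rose by 0.73 (adjusted p = 0.0125), while Gcn1, the activator of GCN2, was lower at -0.40 (adjusted p = 0.0164) and Chac1, a target gene, was lower at -0.37 (adjusted p = 0.017). Atf4, its central transcription factor, was at -0.14 (adjusted p = 0.145). These calls did not run in a single direction in either list.

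Of 8 measured genes listed under termination and recycling 2 fell and none rose. Etf1, the release factor that reads stop codons, was at -0.41 (adjusted p = 0.0209). Tma7, whose part in these steps is not shown here, was at -0.29 (adjusted p = 0.00564). Of 7 poly(A)-binding proteins and partners 2 rose, Pabpn1 by 0.43 (adjusted p = 0.00611) and Paip2b by 0.29 (adjusted p = 0.0109). Of 20 aminoacyl-tRNA synthetases and scaffolds, which load tRNAs, 2 rose and 1 fell: Tars1 was at 0.54 (adjusted p = 0.00732), Wars1 at 0.27 (adjusted p = 0.0302) and Rars1 at -0.42 (adjusted p = 0.0336). Of 7 enzymes that modify eIF5A (hypusine) or eEF2 (diphthamide) 2 rose and 1 fell. Dhps, the first hypusine enzyme, rose by 0.41 (adjusted p = 0.0326), Dph3 rose by 0.31 (adjusted p = 0.0312) and Dnajc24 was at -0.73 (adjusted p = 0.0155). None of 3 mitochondrial translation factors passed, and none of 5 genes listed as partners of eEF2 kinase (Ppp2ca, Ppp2cb, Ppp2r1a, Calm2 and Prkaa1). The list medians lay between -0.09 and 0.13, against -0.00 over all tested probe sets.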

How the data were processed

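Total RNA from 11 rat hippocampus samples was measured on an Affymetrix rat array. The deposited table holds linear signal intensities as the authors gave them, 1 per probe set and array. How signals were summarised and scaled before deposit is not given in the sources used here. No pair of arrays was identical. Signals were quantile-normalised between arrays, since array medians spanned 0.24 on the log2 scale. The normalised signals were then floored at their pooled 5th percentile (5.02) and converted to log2. The 57 control probe sets and the lowest 25% by mean signal (log2 under 5.17) were left out, leaving 11899.

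Diets were compared with limma 3.58.1 in R 4.3.3 (empirical Bayes with a variance trend, Benjamini-Hochberg adjustment, threshold 0.05), after the scripts were tested on simulated data. Array measures were compared with exact permutation tests. The platform annotation named 13101 probe sets, 12789 with a single symbol, 12754 of which were found in RefSeq (GRCr8); 2822 are unnamed here. Array number limits precision.

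The members, roles and lists were chosen with earlier results of these data known. Values are given for every called factor probe set and for the brightest in each role, and at most 3 called genes of a companion list are named, by smallest p. Eif4ebp1 is named beyond these. Same-numbered samples of the diets had deviations correlated by 0.0089 to 0.077. Whether the numbers pair the samples is not given in the labels, and such correlations cannot settle it. The main fit treated the samples as unpaired. Alternatives covered scaling, filter, floor, offset, variance model, array weights, covariates, block, threshold, the mean of a gene's probe sets and leaving out each array. The hybridisation spike-in covariate was added after seeing the data.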

Additional observations from a re-analysis of the deposited data

Results flagged for a closer look

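Among the 54 groups examined for a sample far from the rest of its group (the control and ketogenic arrays of each of the 23 probe sets described in full, and of array measures), 2 held one. Chance gives about 1 in 20. In Eif2b2, control 3 had a log2 signal of 7.57, below the other control arrays at 7.68 to 7.72. In Eif4e (1386997_at), control 6 had a log2 signal of 6.46, below the others at 6.71 to 6.75, and without it the fall was -0.56 (adjusted p = 0.0224, limma). Ketogenic replicate 3 accounted for 0 of the 2.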

How the results depend on the processing

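Eif3a, Eif3f, Eif3h and Eif3k stayed above 0 under every alternative and passed in all 11 fits that left out 1 array; the other 7 called factor probe sets lost their call in at least 1 of those fits. Over these fits the factor probe sets called higher ranged from 4 to 11 and those called lower from 0 to 5; genes called higher ranged from 4 to 11 and lower from 0 to 3; and all called probe sets from 797 (without ketogenic 4) to 3163 (without ketogenic 3). Centring on the 75th percentile gave 13 higher probe sets (11 genes) and 0 lower genes. The deposited signals gave 0 lower genes. Testing with no filter gave 0 lower probe sets and 0 lower genes (9.23% of factor probe sets called in either direction, 8.84% of all), and leaving out the variance trend gave 1 and 0 (11.7% against 13.5%). Array weights gave 5 lower probe sets and 3136 calls in all, and a threshold of 0.1 gave 5 and 3070. The 3′ to 5′ covariates gave 0 higher and 0 lower probe sets and genes, and 6 calls in all. The level of all spike-ins gave 4 higher and 0 lower probe sets and genes, and 767 calls in all. The hybridisation spike-ins gave 4 higher probe sets and genes and 1 lower gene (10% of factor probe sets called in either direction, 11.4% of all). The mean of a gene's probe sets gave 8 higher genes and 1 lower gene. In that limma fit Eif4g2 was at -0.052 (adjusted p = 0.626) and Eef1a1 passed at 0.16 (adjusted p = 0.0198). The cause of these shifts was not tested.

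With the 3′ to 5′ covariates the log2 fold change turned to -0.10 for Eef1g, -0.10 for Eif2b3, -0.024 for Eif3i, 0.10 for Eif4a2, -0.12 for Eif4a3, 0.067 for Eif4e (1386997_at) and 0.21 for Eif5a. Centring on the 75th percentile turned Eef1e1 to 0.0071, Eef2 to 0.020, Eif4a2 to 0.018 and Eif5a to 0.12, and the deposited signals turned Eif5a to 0.085. Eef1e1 turned to 0.018 with array weights and 0.15 with the hybridisation spike-ins. Leaving out 1 array moved Eef1e1 between -0.061 and 0.049 and Eif5a between -0.084 and 0.022. None of Eef1e1, Eef1g, Eef2, Eif4a2, Eif4a3 and Eif5a was called at first. The replicate block, as a random effect, left 8 probe sets higher and 3 lower, and as a fixed term over replicates 1 to 5 it gave 7 and 4; 2 of 5 ketogenic samples correlated best with the control of their own number. On the deposited signals 4 called probe sets (Eif2ak4, Eif2b3, Eif4g2 and Eif6) lost their call.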
